A study of Rattus norvegicus with 16 samples.

Results

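Astrocyte markers were followed here as a set of 10 genes, Gfap, Aqp4, Slc1a2, Slc1a3, Aldh1l1, S100b, Gja1, Glul, Fgfr3 and Sox9, across hippocampal cultures exposed to hydroxyurea. They were chosen by name and not by any measured value, though with earlier results of these data known. Every probe whose accession RefSeq assigns to one of them was taken. This gave 17 probes for the 10 genes, of 15715 genes named on the array, and all 17 probes were well above background on all 16 arrays. The RNA came from primary hippocampal neuron cultures of embryonic day 18 Sprague-Dawley rats and was hybridised to 1-colour (Cy3) Agilent arrays, which report a fluorescence intensity per probe. The 5 groups were untreated cultures and cultures given 5 µM hydroxyurea, an inhibitor of ribonucleotide reductase, for 2, 6, 12 or 24 h, with 3 samples in each. All cultures were plated with 10% serum, grown in Neurobasal medium with 5% B27 and, before treatment, moved to B27 without antioxidants. For the untreated cultures the time in that last medium is not stated in the labels, so no treated group is known to be matched to them in time. The labels give the culture age as 6 to 9 days in 1 field and narrower in another, name hippocampal tissue as the source of the RNA, and do not say that the replicates were separate cultures. The p-values therefore speak of the spread among these samples alone, and that spread may be technical.

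Astrocytes are the glia that clear glutamate and potassium from the surroundings of synapses. Slc1a2 (GLT-1) and Slc1a3 (GLAST) carry glutamate into the cell, Glul (glutamine synthetase) turns it into glutamine that neurons reuse, Aqp4 forms the water channel of astrocyte endfeet, and Gja1, their main connexin, forms gap junctions. Gfap is the intermediate filament protein whose rise marks reactive astrocytes, Aldh1l1 is a folate enzyme used as a pan-astrocyte label, S100b is a calcium-binding protein, Fgfr3 is a growth factor receptor, and Sox9 is a transcription factor of the glial lineage. Cultures of embryonic hippocampus usually hold neurons and some glia, and neural progenitors also express several of these genes.

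Each value below is the log2 processed signal of a probe minus the 75th percentile of the same array, so that 0 is the brightness at that percentile and a step of 1 is a 2-fold difference. For genes with several probes the brightest is described first. Fewer astrocytes and less RNA per astrocyte cannot be told apart in such bulk samples, and brightness is not compared between probes. Across the arrays 64.6% to 70.4% of probes were well above background and no spot was saturated. Repeated spots were least even on the array of 12 h replicate 3 (median coefficient of variation 21.8%) and on the first array for untreated replicate 1 (10.8%), and gave 3.35% to 6.87% on the other 14. In a principal component analysis 12 h replicate 3 stood apart, at 67.0 on the first component (29.6% of the variance) against -10.8 to 4.4 for the other samples. Untreated replicate 1 was hybridised on 2 arrays, which were averaged and counted as 1 sample. The arrays lay on 2 slides.

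The stretch upstream of the start is shown for the 2 markers on which the results turn, Gfap, whose values spread most between replicates, and Slc1a2, whose treated and untreated values stood farthest apart. Both are the 250 bases before the transcription start in RefSeq on GRCr8, 5′ to 3′ on the strand of the gene, chr10:88361662-88361911 on the minus strand for Gfap and chr3:109459859-109460108 on the plus strand for Slc1a2.
Gfap: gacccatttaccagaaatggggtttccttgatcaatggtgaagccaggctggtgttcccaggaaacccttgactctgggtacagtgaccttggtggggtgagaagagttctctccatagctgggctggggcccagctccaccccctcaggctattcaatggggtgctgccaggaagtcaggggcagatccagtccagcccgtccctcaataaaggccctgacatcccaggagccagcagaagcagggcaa
Slc1a2: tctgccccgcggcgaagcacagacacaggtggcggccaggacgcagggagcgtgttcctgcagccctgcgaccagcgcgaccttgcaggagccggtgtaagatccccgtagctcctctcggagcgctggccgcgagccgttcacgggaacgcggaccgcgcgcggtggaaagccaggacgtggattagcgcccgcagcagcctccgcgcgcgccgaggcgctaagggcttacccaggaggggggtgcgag
Neither window holds, on either strand, any of the 6 short motifs searched, so no letter is in capitals. Each motif is given with the share of all 33469 RefSeq windows of this length that hold it. The TATA box was searched as TATAAA and occurs in 12.9% of windows. A SOX core, the kind of site that Sox9 binds, was searched as AACAAT and occurs in 10.3%. The AP-1 site, TGAGTCA, occurs in 4.05%, and the STAT site, TTCNNNGAA, in 7.67%. The GC box, GGGCGG, occurs in 30.5%. The last, TTGGC, is a partial site of NFI, a factor of gliogenesis, and occurs in 40.3%. Slc1a3 and Glul, the other markers with a window outside the gene's span, are not shown and do hold a match. The Slc1a3 window holds TTGGC, on the opposite strand, and the Glul window holds GGGCGG. The Gfap gene spans chr10:88352987-88361661 and Slc1a2 spans chr3:109460109-109590445 on the same build.

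No astrocyte marker passed the test at any time. With limma across 18123 features and Benjamini-Hochberg adjustment, 0 of the 10 markers and 0% of all features had an adjusted p under 0.05 at any of the 4 times against untreated, for the 4 times together, at 24 h against 2 h, or in the F test among the 5 groups. At an unadjusted p under 0.05 the mean of the 4 times held 1 marker, Slc1a2, against 1.74% of all features, and 12 h held the same marker against 2.56%. At 2, 6 and 24 h no marker reached that level, against 1.29%, 0.784% and 0.916% of features. The markers' differences from untreated ran from -0.10 for Fgfr3 to 0.28 for Slc1a2 at 2 h, from -0.07 for Aldh1l1 to 0.23 for Slc1a2 at 6 h, from -0.12 for Glul to 0.46 for Slc1a2 at 12 h, and from -0.04 for Aldh1l1 to 0.31 for Slc1a2 at 24 h. Between 24 h and 2 h they ran from -0.05 for Slc1a3 to 0.17 for Fgfr3. All comparisons with untreated share the same 3 untreated samples.

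**Figure D1:**
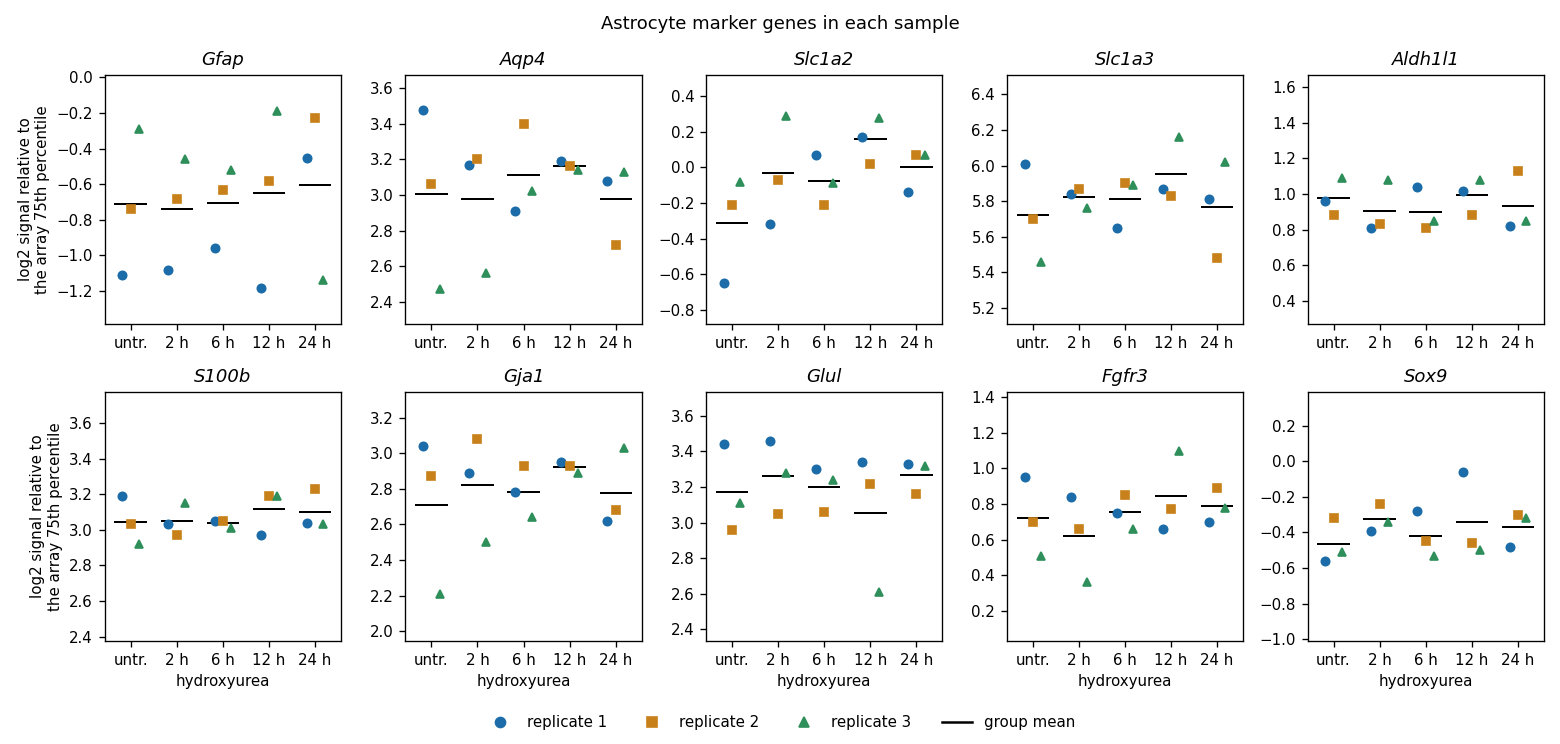
Signal of the 10 astrocyte marker genes in each of the 15 samples, as log2 signal relative to the array 75th percentile, by hours of hydroxyurea; every panel spans the same height. Points are samples, with shape and colour for the replicate number, and bars are group means of 3 samples. Treated and untreated points overlap in every panel at every time except Slc1a2 at 12 h, and untreated replicate 3 holds the lowest point of Aqp4, Slc1a3, S100b and Gja1.

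More markers lay above the untreated mean than below it, by small amounts. The mean was higher in 6 of 10 markers at 2 h, 8 at 6 h, 9 at 12 h and 8 at 24 h, where 49.4%, 45.2%, 56.6% and 50.3% of all features were higher. In the mean of the 4 times 9 of 10 were higher, against 49% of features, with a median difference of 0.05 on the log2 scale against 0 for all features. Without 12 h replicate 3, the sample that stood apart, 7 of 10 were higher at 12 h and 7 over the 4 times, and at 12 h no marker had an unadjusted p under 0.05 (limma; Slc1a2 gave 0.40, unadjusted p = 0.0545). The count over the 4 times rested on untreated replicate 3, the sample with the lowest markers: its 10 values lay on average 0.16 below each gene's mean over the 15 samples (a mean deviation of -0.16), and only 2 of the 10 were above that mean. Without it 4 of 10 markers were higher in treated samples. The other astrocyte genes and the radial glia markers were also lowest in the same sample of the 15, each with a mean deviation of -0.27. The radial glia markers did not stand apart there. They were at -0.213 to -0.145 in 24 h replicate 1 and in replicate 3 at 2, 6 and 12 h. In untreated replicate 3 the neuron markers deviated by 0.15 and the fibroblast and pericyte markers by 0.37. Neither was the highest: the neuron markers reached 0.40 in 12 h replicate 3 and the fibroblast and pericyte markers 0.41 in 2 h replicate 3. The part of these lists in the count was not tested. Within slide 1 the count was 3 of 10 and within slide 2 it was 8 of 10; with the slide as a term it was 9 of 10.

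**Figure D2:**
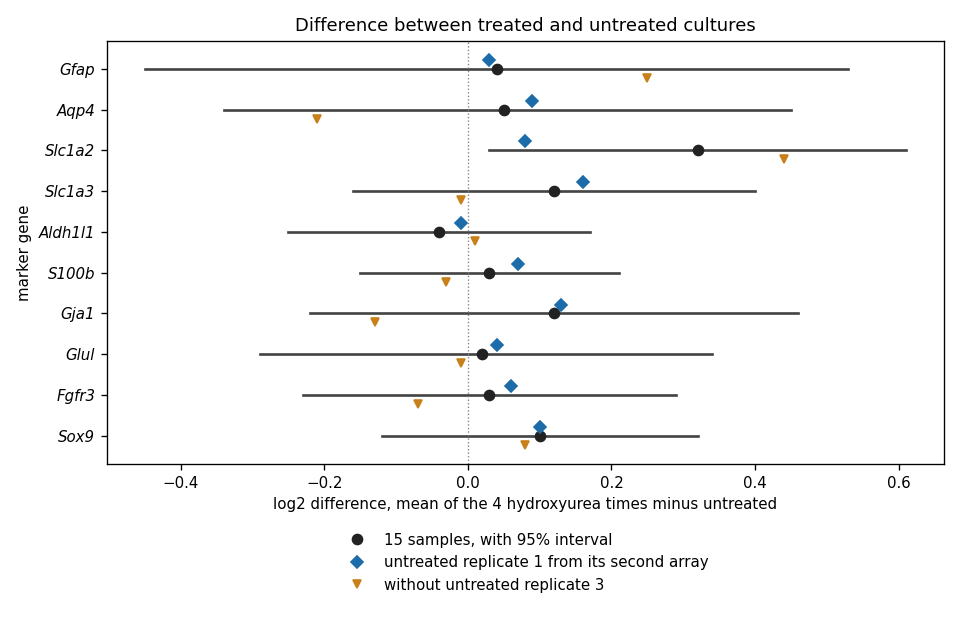
Log2 difference of the mean of the 4 hydroxyurea times from untreated for each marker gene. Black points with bars are the estimates over 15 samples with their 95% intervals, diamonds take untreated replicate 1 from its second array alone, and triangles leave out untreated replicate 3. Every interval except that of Slc1a2 includes 0; the Slc1a2 estimate is 0.32 over 15 samples and 0.08 with the second array, and leaving out untreated replicate 3 takes Aqp4 from 0.05 to -0.21 and Gja1 from 0.12 to -0.13.

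Of the glutamate transporters, Slc1a2 measured -0.65, -0.21 and -0.08 in untreated replicates 1, 2 and 3. It measured -0.32, -0.07 and 0.29 at 2 h, 0.07, -0.21 and -0.09 at 6 h, 0.17, 0.02 and 0.28 at 12 h, and -0.14, 0.07 and 0.07 at 24 h. All 3 samples at 12 h were above all 3 untreated samples, as in 3.23% of features, and the groups overlapped at the other times. The difference at 12 h was 0.46 (SE 0.17, 1.38-fold, unadjusted p = 0.0171, limma adjusted p = 0.993), and that of the 4 times together was 0.32 (SE 0.14, unadjusted p = 0.0324, limma adjusted p = 1).

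These Slc1a2 differences rested on 1 spot. The probe has 2 spots on each array, and on the first array of untreated replicate 1 they read -2.98 and 0.23, a gap of 3.21, while the median gap between spots of a marker probe was 0.08 over 224 pairs of probe and array. The first array gave -1.37 for this sample and the second array 0.08. With the low spot left out, an alternative chosen after its value was seen, the differences were 0.01 at 2 h, -0.04 at 6 h, 0.20 at 12 h and 0.05 at 24 h, and 0.05 (SE 0.12) for the 4 times together. Untreated replicate 1 then read 0.16, above 12 h replicate 2 at 0.02, so that the 12 h and untreated samples overlapped. The second Slc1a2 probe, which reads another transcript record, measured -0.28, -0.49 and -0.42 in untreated samples and differed by 0.02 (SE 0.11) over the 4 times. Within slide 1, which holds the array with the low spot, the 4 times differed from untreated by 0.79, and within slide 2 by 0.08.

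**Figure D3:**
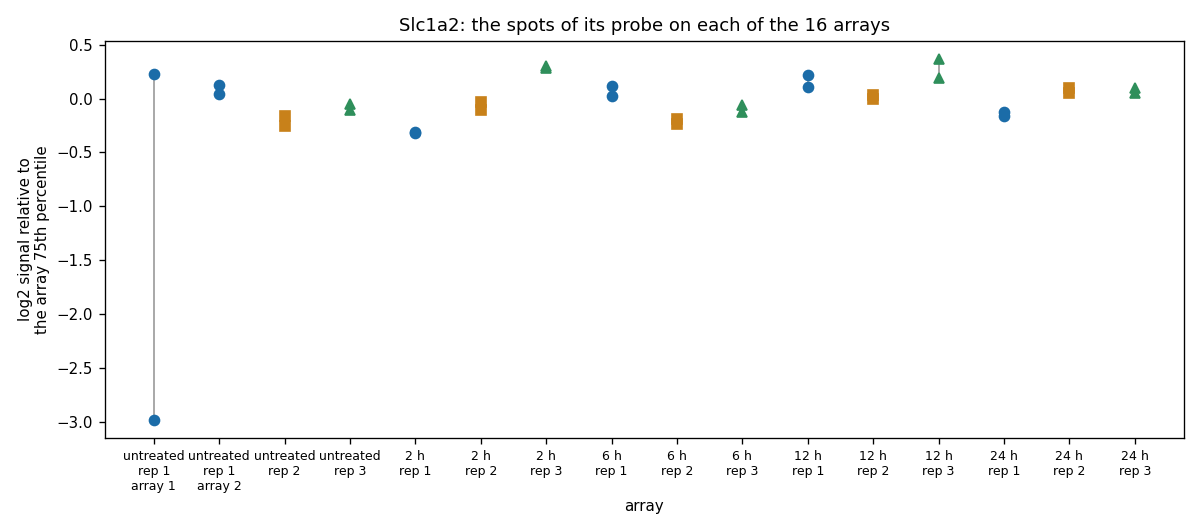
The 2 spots of the brighter Slc1a2 probe on each of the 16 arrays, as log2 signal relative to the array 75th percentile; a grey line joins the spots of 1 array, and untreated replicate 1 has 2 arrays. The first array of untreated replicate 1 has 1 spot at -2.98 and the other at 0.23, and on the other arrays the spots lie close together.

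Slc1a3, the second glutamate transporter, varied as much between untreated samples as between groups. It measured 6.01, 5.70 and 5.46 untreated, 5.84, 5.87 and 5.76 at 2 h, 5.65, 5.90 and 5.89 at 6 h, 5.87, 5.83 and 6.16 at 12 h, and 5.81, 5.48 and 6.02 at 24 h. Every treated group overlapped the untreated one, and 12 h replicate 3 and 24 h replicate 3 lay above every untreated sample. The 4 times together differed by 0.12 (SE 0.13, limma adjusted p = 1). Glul, which takes up the next step of the cycle, measured 3.44, 2.96 and 3.11 untreated, 3.46, 3.05 and 3.28 at 2 h, 3.30, 3.06 and 3.24 at 6 h, 3.34, 3.22 and 2.61 at 12 h, and 3.33, 3.16 and 3.32 at 24 h. The value of 2.61 at 12 h replicate 3, the lowest of the 15, again joined spots that disagreed, at 2.08 and 3.14. The 12 h difference was -0.12 with that sample and 0.10 without it, and the 4 times together differed by 0.02 (SE 0.14).

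Among the membrane and junction proteins, Aqp4 varied more between untreated samples than between groups. It measured 3.48, 3.06 and 2.47 untreated, 3.17, 3.20 and 2.56 at 2 h, 2.91, 3.40 and 3.02 at 6 h, 3.19, 3.16 and 3.14 at 12 h, and 3.08, 2.72 and 3.13 at 24 h. The untreated samples thus held both the highest and the lowest of the 15 values, and the 4 times together differed by 0.05 (SE 0.19). The other 2 Aqp4 probes had higher means at 12 h than untreated. The dimmest, with 1 spot per array, read -1.46, -1.27 and -1.60 untreated and -0.94, -1.04 and -0.93 at 12 h, without overlap, as in 3.38% of 20295 probes. The difference was 0.47 (SE 0.14, unadjusted p = 0.00465, limma adjusted p = 0.994 with every probe on its own), and 2.66% of probes had an unadjusted p under 0.05. The remaining one differed by 0.32 (SE 0.14, unadjusted p = 0.0383, limma adjusted p = 0.994), and the brightest by 0.16. Over the 15 samples the 2 dimmer probes followed each other (Pearson's r = 0.81) and followed the brightest less closely (r = 0.27 and 0.16).

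Gja1 was low where Aqp4 was low. It measured 3.04, 2.87 and 2.21 untreated, 2.89, 3.08 and 2.50 at 2 h, 2.78, 2.93 and 2.64 at 6 h, 2.95, 2.93 and 2.89 at 12 h, and 2.62, 2.68 and 3.03 at 24 h. The lowest 2 of the 15 values were untreated replicate 3 and 2 h replicate 3, as for Aqp4. The 4 times together differed by 0.12 (SE 0.16, limma adjusted p = 1).

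Gfap, the filament gene that marks reactive astrocytes, differed less between group means than between samples of 1 group. It measured -1.11, -0.74 and -0.29 in untreated replicates 1, 2 and 3, -1.08, -0.68 and -0.46 at 2 h, -0.96, -0.63 and -0.52 at 6 h, -1.18, -0.58 and -0.19 at 12 h, and -0.45, -0.23 and -1.14 at 24 h. Group means were -0.71 ± 0.41, -0.74 ± 0.32, -0.70 ± 0.23, -0.65 ± 0.50 and -0.61 ± 0.48 (SD, n = 3). The differences from untreated were -0.03, 0.01, 0.06 and 0.10 at 2, 6, 12 and 24 h (SE 0.29 each), and 0.04 (SE 0.23, 95% interval -0.45 to 0.53) over the 4 times. Within slide 1 the latter was -0.07 and within slide 2 it was 0.27.

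Gfap was lowest in replicate 1 and highest in replicate 3 in 4 of the 5 groups, untreated, 2 h, 6 h and 12 h. At 24 h replicate 3 was the lowest at -1.14 and replicate 1 measured -0.45. At 24 h the authors' deposited scores for replicates 1 and 3 match each other's scanner files (r = 0.999996, against 0.991 with their own), so which of the arrays is which replicate cannot be told from the files. As labelled, the means by number were -0.96, -0.57 and -0.52, and the number was not called for Gfap (limma F test, adjusted p = 0.623), nor for any other marker, against 0.872% of features called. With these 24 h replicates exchanged, the means were -1.09 ± 0.08, -0.57 ± 0.20 and -0.38 ± 0.14 (SD, n = 5), and every sample numbered 3 was above every sample numbered 1 by at least 0.44. Gfap was then called (limma F test, adjusted p = 0.00616), as the only 1 of 10 markers, against 3.47% of features.

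Replicate number and slide moved together. After the exchange all samples numbered 1 were on slide 1, with a repeat of untreated replicate 1 on slide 2, and all numbered 3 were on slide 2. With the slide as a term, Gfap was no longer called by number (limma F test, adjusted p = 0.16, against 1.67% of features). With numbers as labelled and the slide as a term, slide 2 read 0.52 above slide 1 in Gfap (unadjusted p = 0.00231, limma adjusted p = 0.269), and after the exchange 0.22 above it (limma adjusted p = 0.802). The sample measured on both slides read -1.12 on slide 1, from 10 spots between -1.83 and -0.41, and -1.10 on slide 2. Within slide 1 the 5 arrays numbered 1 read -1.18 to -0.96 and the 3 numbered 2 read -0.74 to -0.63, without overlap, while within slide 2 those numbered 2 read -0.58 and -0.23 and those numbered 3 read -0.52 to -0.19, which overlap. Several other lists moved with the number too after the exchange. The mean deviation of fibroblast and pericyte markers was 0.17 to 0.41 in the samples numbered 3 and -0.34 to 0.13 in all others. That of radial glia markers was -0.268 to -0.145 in the samples numbered 3 and -0.008 to 0.238 in all others. Ependymal markers (0.40 to 0.56) and reactive astrocyte genes (0.19 to 0.28) were highest in the samples numbered 2. The part of these lists in the Gfap values was not tested. Gja1 ran the other way from Gfap after the exchange, with means of 2.94, 2.90 and 2.57 by number, and was not called (limma F test, adjusted p = 0.189).

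**Figure D4:**
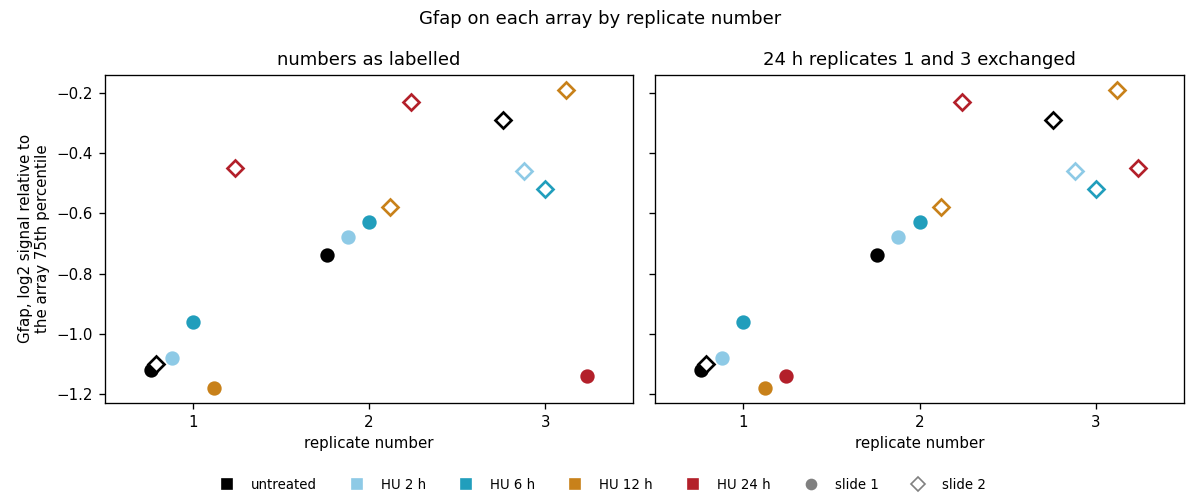
Gfap on each of the 16 arrays, as log2 signal relative to the array 75th percentile, by replicate number as labelled (left) and with 24 h replicates 1 and 3 exchanged (right). Colour gives the group, filled circles are arrays of slide 1 and open diamonds arrays of slide 2; the pair of black points at number 1 is the untreated sample hybridised on both slides. After the exchange the points numbered 1 lie between -1.18 and -0.96 and those numbered 3 between -0.52 and -0.19.

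The remaining markers varied least, with SDs within groups of 0.11 to 0.19 on the log2 scale, where those above had 0.20 to 0.40. S100b, the calcium-binding protein, lay between 2.92 and 3.23 in all 15 samples and differed by 0.03 (SE 0.09, 95% interval -0.15 to 0.21) over the 4 times. Aldh1l1, the folate enzyme, lay between 0.81 and 1.13 and differed by -0.04 (SE 0.10), the only marker with a lower treated mean. Sox9, the transcription factor, measured -0.56, -0.32 and -0.51 untreated and -0.53 to -0.06 in the 12 treated samples, a difference of 0.10 (SE 0.10). Fgfr3, the receptor, measured 0.95, 0.70 and 0.51 untreated, 0.84, 0.66 and 0.36 at 2 h, 0.75, 0.85 and 0.66 at 6 h, 0.66, 0.77 and 1.10 at 12 h and 0.70, 0.89 and 0.78 at 24 h, a difference of 0.03 (SE 0.12). Its dimmer probe was less variable in untreated cultures, at -2.74, -2.72 and -2.71, and lay above all 3 of these at 12 h (-2.64 to -2.09, as in 3.38% of probes) and at 24 h (-2.70 to -2.38, as in 1.31%). Its mean differed by 0.27 (SE 0.17) at 12 h, and by 0.09 (SE 0.16) without 12 h replicate 3. The paired probes of Slc1a3, S100b and Sox9 hardly followed each other over the samples (r = 0.04, 0.16 and 0.01), those of Slc1a2 and Fgfr3 more closely (r = 0.50 and 0.70).

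The markers did not move as 1 block from sample to sample. Over the 45 pairs and 15 samples the median Pearson's r was -0.05, and 22 pairs were above 0. Aqp4 and Gja1 were the closest pair (r = 0.86, Spearman's rho = 0.85, permutation p = 7e-05 for each, 0.00315 after Benjamini-Hochberg adjustment over the 45 pairs). The permutations for all pairs shuffled the 15 samples freely, so their p-values take no account of group, slide or replicate number. After the exchange of 24 h replicates both genes had their lowest mean in the samples numbered 3, at 2.85 for Aqp4 and 2.57 for Gja1. The r of this pair stayed positive without the 2 samples farthest from the Aqp4 median (r = 0.67) and within groups (r = 0.88). It was 0.53 within slide 1 and 0.84 within slide 2, each over 7 samples. Aqp4 was entered by its brightest probe alone, and the dimmer ones described above were not tested against Gja1. Aqp4 and Slc1a3 (r = 0.73, rho = 0.70) missed the threshold after adjustment (permutation p = 0.00224, adjusted p = 0.0504), and no other pair passed it. Fgfr3 gave 0.61 with Aqp4 and 0.56 with Gja1 (permutation, adjusted p = 0.106 and 0.183), which fell to 0.17 and 0.14 without the 2 farthest samples, and with Gja1 it gave -0.26 within slide 1.

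Gfap ran against Gja1 (r = -0.60, rho = -0.63) and Glul (r = -0.62). Neither r passed the adjustment (permutation, adjusted p = 0.106 with Gja1 and 0.103 with Glul). Against Gja1 the relation did not hold within slide 1 (r = 0.06) or slide 2 (r = -0.14). Against Glul it was -0.89 and -0.71 within the slides. Mean Glul was highest in samples numbered 1, at 3.37 against 3.09 and 3.11 for numbers 2 and 3 under either numbering. Mean Gfap was lowest in those numbered 1. After the exchange slide 1 held only samples numbered 1 and 2. Slide 2 included the Glul value of 2.61 at 12 h replicate 3, from spots that disagreed. The part of number and of these spots in the relation was not tested. Aldh1l1 ran against Aqp4 (r = -0.62, permutation, adjusted p = 0.106), and the pair gave -0.60 and -0.66 within the slides.

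**Figure D5:**
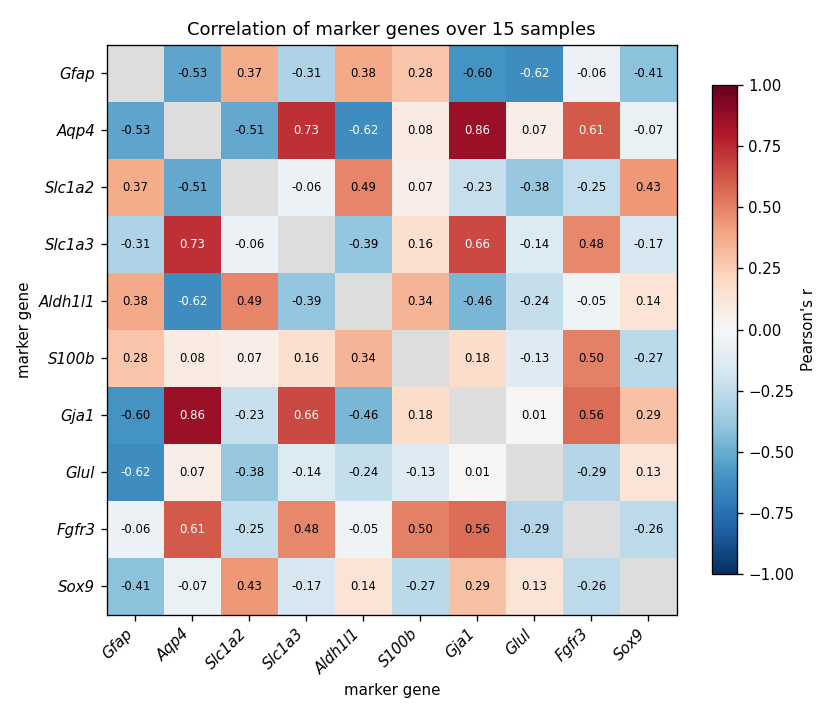
Pearson's r over the 15 samples for each of the 45 pairs of marker genes, each by its brightest probe; red is positive, blue negative, and the diagonal is left grey. The pairs among Aqp4, Gja1, Slc1a3 and Fgfr3 are positive, from 0.48 to 0.86, those of Fgfr3 with Aqp4 and Gja1 resting on the 2 farthest samples. Gfap is negative with Glul, Gja1 and Aqp4, without passing the adjustment. Within slide 1 its r is 0.06 with Gja1 and 0.32 with Aqp4.

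Named features were ranked by their likeness to the mean of the 10 standardised markers. As the markers did not move as 1 block, this is not likeness to each marker. Eepd1 was first (Pearson's r = 0.88 over 15 samples, 0.91 within groups), followed by Hps6 and Cplane2 (0.84 each) and by Sfxn5 and Cyp4f1 (0.83 each). Of genes on the other lists, Notch1, a regulator of gliogenesis, was among the first 10 over all samples (0.78) and within groups (0.84), and Pdgfrb, a fibroblast and pericyte marker, was among them within groups (0.89, against 0.65 over all samples). The mean of the markers was lowest in untreated replicate 3 (-0.84) and highest in 12 h replicate 3 (0.62). These correlations are the highest picked from all named features, share samples, arrays and slides, and are given as a description.

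More of the other genes enriched in astrocytes lay above the untreated mean than below it too, measured against the same 3 untreated samples. Of 21 such genes above the filter, 16 were higher at 2 h, 13 at 6 h, 17 at 12 h and 20 at 24 h. Over the 4 times together 18 were higher, with a median difference of 0.08; 0 were called. Among those of smallest unadjusted p were Aldoc, a glycolytic aldolase, with 0.44 (SE 0.14, unadjusted p = 0.00582) and Slc7a10, an amino acid exchanger, with 0.34 (SE 0.19), both with limma adjusted p = 1. Both were low on the same array as Slc1a2. Aldoc read 5.18 on the first and 6.84 on the second array of untreated replicate 1, against 6.84 and 6.70 in the other untreated samples. Slc7a10 read -2.94 and -1.42, its spots on the first array at -4.87 and -1.01. From the second array alone the differences were 0.17 (SE 0.08) in Aldoc and 0.09 (SE 0.17) in Slc7a10. The first array read over 1 log2 unit below the second for 3.26% of all features and over 1 above it for 0.552%, and it read over 1 below for 1 of the 10 markers, Slc1a2, for 3 of the 21 other astrocyte genes and for 0 genes of every other list. From the second array alone 9 of 10 markers and 18 of 21 other astrocyte genes were higher over the 4 times, against 54% of features. Without untreated replicate 3 these were 4 of 10 and 13 of 21, against 48.4% of features.

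The other genes of these pathways passed the test in 0 cases. In the glutamate-glutamine cycle 5 of 12 genes were higher over the 4 times, and the first by p was Slc17a6, a vesicular glutamate transporter of neurons, with -0.13 (SE 0.10). Of the 6 synapse factors that astrocytes secrete 2 were higher, and Thbs1 and Thbs2 were not well above background on any array. Of 16 regulators of gliogenesis 8 were higher, led by Hes5, a target of Notch, with 0.33 (SE 0.15), and 0.20 (SE 0.14) from the second array alone. Of 29 reactive astrocyte genes on the array 9 were not well above background on any array, among them Serpina3n, Cxcl10 and Steap4, and of the 18 tested 7 were higher, with a median of -0.01; the first by p was Amigo2 with -0.13 (SE 0.14). Leaving out 1 untreated sample at a time, these counts ran from 3 to 6 of the 12 cycle genes, 0 to 3 of the 6 synapse factors, 5 to 12 of the 16 regulators and 5 to 14 of the 18 reactive genes.

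Markers of the other cells such a culture can hold were read beside these values, as counts of higher means and as sums of linear signal over the genes tested. A sum is set only against the same list in other samples, and its brightest gene can hold most of it: Slc1a3 held 54.0% to 65.1% of the astrocyte sum and Fabp7 61.6% to 72.2% of the radial glia sum. At 2, 6, 12 and 24 h the mean was higher in 4, 2, 8 and 3 of 13 neuron markers, in 8, 5, 7 and 4 of 10 radial glia markers, in 6, 3, 6 and 10 of 11 oligodendrocyte lineage markers and in 6, 4, 6 and 6 of 8 microglia markers; no difference between lists was tested. The 10 astrocyte markers summed to 76.3 to 109 in untreated samples, 90.4 to 98.6 at 2 h, 88.9 to 100 at 6 h, 97.8 to 110 at 12 h and 82.8 to 106 at 24 h. The 13 neuron markers on the array all passed the filter on dim probes and summed to 209 to 229 untreated, 196 to 250 at 2 h, 198 to 227 at 6 h, 210 to 260 at 12 h and 205 to 222 at 24 h. Of these 6 were higher over the 4 times (2 without untreated replicate 1 or without 12 h replicate 3, and 9 without untreated replicate 3), the first by p being Snap25, a synaptic vesicle fusion protein, with -0.12 (SE 0.12). The 10 radial glia markers summed to 129 to 182 untreated and to 140 to 198 in treated samples, and the 11 oligodendrocyte lineage markers to 47.5 to 56.7 and 39.6 to 57.1. The 8 microglia markers tested summed to 1.10 to 1.39 untreated and 1.08 to 1.63 treated, with Itgam and Ptprc not well above background on any array. Of the endothelial markers 5 of 8, Cldn5, Flt1, Tek, Emcn and Esam, were not well above background on any array, and of the fibroblast and pericyte markers Rgs5 was not; the 9 fibroblast and pericyte markers tested were higher in 1 case over the 4 times, in 4 without untreated replicate 1, 3 without replicate 2 and 4 without replicate 3. The 3 endothelial markers tested summed to 0.258 to 0.408 untreated and 0.273 to 0.425 treated, and the 3 ependymal markers to 0.945 to 1.33 and 0.882 to 1.42. The 21 other astrocyte genes summed to 409 to 468 untreated and to 491 to 527 at 12 h, without overlap, and overlapped at the other times. Apoe alone held 38.7% to 48% of this sum, and the list holds Aldoc with its low untreated reading. The sums of every other list named here overlapped between untreated and each treated group, and their part in the values of the astrocyte markers was not tested.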

How the data were processed

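The processed signal in the authors' scanner files is, per the file headers, a Cy3 spot intensity with background already subtracted by the Agilent software and no scaling between arrays. The series values deposited by the authors are a score per array, which was checked to be the standardised log signal, and served as an alternative only. Per the labels, 200 ng of RNA was labelled for each array. Control spots and spots marked as outliers were left out, log2 signals were averaged over the spots of a probe, and the 75th percentile over non-control probes was subtracted from each array. The rule for the markers takes that percentile over spots, which is given as an alternative. Accessions were matched to RefSeq, which named 18758 of 30367 probes; 11609 stayed unnamed. Each gene was represented by its probe of highest mean. Probes were kept if every array of at least 1 group showed over 0.5 of their spots well above background, leaving 18123 features. limma 3.58.1 (R 4.3.3) was fitted to the 15 samples with 5 group means (10 residual and 3.68 prior degrees of freedom), with two-sided tests and Benjamini-Hochberg adjustment over all features at 0.05. Pairs of markers were tested with 100000 permutations in Python 3.11.15. With 16 arrays their number limits the precision.

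The markers, the 12 other lists and the comparisons were chosen with earlier results of these data known. All markers are named with every probe, and of other lists at most the 3 genes of smallest unadjusted p over the 4 times. 1 gene that this rule names is not reported here. On simulated data of 24 h against untreated with 18123 features, 16 of 50 features changed by 0.5, 35 of 50 changed by 1 and 47 of 50 changed by 2 (log2) were recovered, so a small change can be missed. Among the unchanged features 5 were called. The simulated noise was independent and normal, without slide, replicate number or uneven arrays, so recovery in the real data may differ. Alternatives covered scaling, background correction, filters, choice of probe, slide, replicate number, the deposited scores and leaving out each sample; leaving out samples for the other lists and for single probes was added after values were seen.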

Additional observations from a re-analysis of the deposited data

How the results depend on the processing

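No marker was called in any comparison under the 34 alternative settings. The 30 single-gene differences named above kept their direction in 963 of 1025 alternative values and were called in 0 (smallest limma adjusted p 0.514). Of all features, 5 were called at 12 h within slide 1 and 1 over the 4 times with the replicate block after exchanging 24 h replicates 1 and 3. Over the markers, the count with a higher mean became 3 at 6 h, 4 at 12 h, 5 at 24 h and 3 over the 4 times within slide 1, and 5 at 6 h and 4 at 24 h against 2 h within slide 2. Leaving out 1 sample at a time it ranged from 3 to 8 at 6 h, 5 to 9 at 24 h, 4 to 9 over the 4 times and 4 to 7 at 24 h against 2 h. In fits within a slide, or with a sample left out, a group's lone sample takes the spread of the remaining groups. The slide could not be fitted as a random block with 1 repeated sample, and was a fixed term.

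Directions turned as follows, and the cause was not tested unless given above. Leaving out 1 sample at a time, Gfap ran from -0.23 to 0.18 at 2 h, -0.19 to 0.22 at 6 h, -0.16 to 0.33 at 12 h, -0.09 to 0.37 at 24 h and -0.16 to 0.25 over the 4 times. Fgfr3 ran from -0.21 to 0.03 at 2 h, Glul from -0.26 to 0.10 at 12 h, Aldh1l1 from -0.14 to 0.01 at 24 h and Slc1a3 from -0.18 to 0.09 at 24 h against 2 h. Over the 4 times Aqp4 ran from -0.21 to 0.29, Slc1a3 from -0.01 to 0.26, Aldh1l1 from -0.09 to 0.01, S100b from -0.03 to 0.10, Gja1 from -0.13 to 0.29, Glul from -0.08 to 0.16 and Fgfr3 from -0.07 to 0.15. Within slide 1 the 4 times differed by -0.16 in Aqp4, -0.13 in Fgfr3, -0.07 in Gfap, -0.02 in Gja1, -0.15 in S100b and -0.03 in Slc1a3; Gfap gave 0.05 at 2 h, -0.25 at 12 h and -0.22 at 24 h, Glul 0.11 at 12 h, and Slc1a3 0.16 at 24 h against 2 h. Within slide 2 they were -0.01 in Aqp4 and -0.08 in Glul; Gfap gave 0.23 at 2 h, Slc1a2 -0.09 at 6 h and -0.04 at 24 h, and Aldh1l1 0.01 at 24 h. With the slide as a term Gfap gave 0.06 at 2 h and -0.03 at 12 h. With array weights Gfap gave -0.05 at 12 h and -0.02 over the 4 times, Glul 0.14 at 12 h, Slc1a3 0.01 at 24 h against 2 h and Amigo2 0.01 over the 4 times. Without the 2 arrays of widest spot spread Gfap gave -0.17 at 12 h and -0.02 over the 4 times, Glul 0.12 at 12 h and Slc1a2 -0.01 at 6 h. Slc1a2 at 6 h was also -0.01 with the second array of untreated replicate 1 and -0.04 without its low spot. Gfap at 6 h was -0.01 with Z-score scaling and with the deposited scores, S100b over the 4 times -0.01 with the first array of untreated replicate 1, and Glul over the 4 times -0.04 with normexp correction.

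Replicate numbers are shared between groups. Of 30 same-numbered pairs 19 had deviations correlated over 0.1 (range -0.42 to 0.42), and 7 of 15 samples correlated best with their own number; after the exchange these were 24 pairs, the lowest at 0.01, and 13 samples. Under neither numbering did every pair exceed 0.1, and the numbers were not taken to pair the samples; the higher values after the exchange are a hint from the data and not the design. With the replicate block 0 features were called over the 4 times (366 at an unadjusted p under 0.05, limma), Gfap gave 0.04 (SE 0.20), and the Gfap standard error at each time was 0.26, or 0.14 after the exchange, against 0.29 without a block.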
